A study of Mus musculus with 20 samples.

Results

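Globin and other red cell transcripts in liver are described here across 20 mice through 6 genes: the alpha-globins Hba-a1 and Hba-a2, the beta-globins Hbb-bs and Hbb-bt, Alas2 and Car1. They are 6 of the 46078 genes in the count table, and all 6 were among the 14759 genes that passed the filter on low counts. They were picked because their levels move together in these livers, being lower in Cse-/- animals given the cysteine-free diet than in Cse+/- animals given it, so their levels and fold changes are given as a description and without a test.

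The mice carried either a single working copy or none of Cse (also Cth), the gene of cystathionine gamma-lyase, which makes cysteine from cystathionine. Wild-type animals were not analysed here: the mice labelled WT in the series are heterozygous in the study's list of animals and are called Cse+/- here. The groups were Cse+/- on the control diet (2 mice), Cse+/- on the no-Cys diet (4), Cse-/- on the no-Cys diet (4), Cse+/- on the no-Trp diet (3), Cse-/- on the no-Trp diet (3) and Cse-/- on the no-Trp diet with BSO (4), an inhibitor of glutathione synthesis. No library of Cse-/- mice on the control diet was used, so the effect of genotype without a diet change cannot be told apart from that of the diets. All were male, on a mixed 129/C57BL/6 background and at least 9 weeks old when the diets began. They received a calorie-restricted control diet for 3 days and then a calorie-restricted test diet, and livers were taken 2 days later.

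Red cells carry oxygen on haemoglobin, a tetramer of alpha-globin and beta-globin chains that each hold a haem group. In adults erythroid precursors make these chains mainly in the marrow and spleen, and before birth mainly in the liver. Young red cells called reticulocytes keep globin mRNA after they lose the nucleus, so the blood held in a tissue contributes globin reads. ALAS2 is the erythroid enzyme of the first step of haem synthesis, and carbonic anhydrase 1, the product of Car1, is a major cytosolic protein of the mature red cell that converts carbon dioxide and bicarbonate. In bulk liver, fewer red cells and less RNA per red cell cannot be told apart. The sources used here do not say whether these livers were perfused before RNA extraction.

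The 4 globin genes lie in 2 clusters. On GRCm38, with the GENCODE M21 annotation, Hba-a1 is the protein-coding gene at chr11:32283511-32284465 and Hba-a2 that at chr11:32296489-32297298, both on the plus strand. Hbb-bs is at chr7:103826534-103828096 and Hbb-bt at chr7:103812524-103813996, both on the minus strand. Alas2 is at chrX:150547375-150570638 on the plus strand, and Car1 at chr3:14766216-14808368 on the minus strand.

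Because these genes change together, the 250 bases upstream of their RefSeq starts (GRCm38.p6) are shown with 4 short motifs in capitals, in either orientation. RefSeq promoters were matched for 5 of the 6 members, and 4 are printed. GATAA holds the core that GATA1, the master regulator of erythroid genes, recognises, CACCC is the core of the boxes bound by KLF1, and CCAAT and TATAA are general promoter boxes. The windows are chr11:32283422-32283671 on the plus strand for Hba-a1, chr7:103827929-103828178 on the minus strand for Hbb-bs, chr7:103813924-103814173 on the minus strand for Hbb-bt and chrX:150547167-150547416 on the plus strand for Alas2; GENCODE places the outer ends of these 4 genes inside the windows.
Hba-a1: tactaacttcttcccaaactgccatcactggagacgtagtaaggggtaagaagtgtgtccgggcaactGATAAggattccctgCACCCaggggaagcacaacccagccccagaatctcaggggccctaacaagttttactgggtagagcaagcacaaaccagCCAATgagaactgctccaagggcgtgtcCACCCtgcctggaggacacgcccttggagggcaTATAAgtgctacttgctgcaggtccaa
Hbb-bs: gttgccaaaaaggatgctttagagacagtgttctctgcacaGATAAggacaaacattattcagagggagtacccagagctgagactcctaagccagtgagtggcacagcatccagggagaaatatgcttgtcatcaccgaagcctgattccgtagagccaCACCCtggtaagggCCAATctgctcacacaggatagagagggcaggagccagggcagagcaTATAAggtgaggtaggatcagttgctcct
Hbb-bt: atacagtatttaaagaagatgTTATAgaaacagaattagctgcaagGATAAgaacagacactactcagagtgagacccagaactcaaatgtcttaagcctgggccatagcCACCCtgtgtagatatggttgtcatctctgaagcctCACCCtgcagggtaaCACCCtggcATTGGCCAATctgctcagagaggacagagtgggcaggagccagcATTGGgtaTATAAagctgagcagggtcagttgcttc
Alas2: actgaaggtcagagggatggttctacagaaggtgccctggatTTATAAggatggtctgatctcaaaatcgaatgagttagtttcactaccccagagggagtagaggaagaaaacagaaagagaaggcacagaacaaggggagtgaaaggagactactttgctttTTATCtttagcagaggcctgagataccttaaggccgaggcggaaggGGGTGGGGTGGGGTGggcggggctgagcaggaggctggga
The Hba-a2 window (chr11:32296242-32296491) is not printed, since 247 of its 250 bases form a run that is identical in Hba-a1. The longest identical run of the Hbb-bs and Hbb-bt windows was 14 bases. All 4 globin windows held all 4 motifs on the forward strand. In Hba-a1 the forward TATAA began 27 bases before the start, and it began 29 bases before the start in Hbb-bs and 28 in Hbb-bt. The Alas2 window held GATAA on the reverse strand (printed as TTATC), 3 abutting reverse copies of CACCC (printed as GGGTG) and an overlapping forward and reverse TATAA, and it held no CCAAT in these letters. Among 32851 mouse promoters of this length, GATAA occurred in 22.6%, CACCC in 52%, CCAAT in 33.8% and TATAA in 22.8%, so each motif alone is common and a match is a description only.

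The library totals ranged from 11785740 to 57986121 counts, and the 6 members took between 0.00733% and 0.0388% of them. Cth, the targeted gene, lay between 88.3 and 332 CPM (read counts scaled to a common library size after TMM normalization) in the Cse+/- mice and between 6.37 and 14.4 CPM in the Cse-/- mice, with no overlap. Replicate libraries were separate mice and differed by more than counting noise in all 25 pairs within groups (chi-square per gene from 9.6 to 64.2).

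The 4 globins share exon sequence, which limits how their reads can be split. Of the words of 61 bases in the annotated transcripts of Hba-a1, 70.4% also occur in Hba-a2, and 87.3% of those of Hba-a2 occur in Hba-a1. The share was 52.5% for Hbb-bs and 57.5% for Hbb-bt, each with the other. The counts of single globins are therefore uncertain, and the sum of the 4 is less so. Alas2 shared 10.6% of its words with Apex2, a DNA repair gene whose annotated span on the opposite strand (chrX:150519519-150589868) contains Alas2, and no source used here describes the counting as strand-specific. Apex2 had group means from 8.25 to 11.8 CPM, with 8.74 CPM in Cse+/- and 8.76 CPM in Cse-/- animals given no-Cys. Car1 shared 9.87% of its words with the pseudogene Gm5843, which never exceeded 0.0901 CPM.

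Hbb-bs was the most abundant member per kilobase of exon, by the full exon length and with no correction for shared sequence. With the no-Cys diet it reached 200.2 CPM per kilobase in Cse+/- mice, ahead of Hba-a1 at 72.6, Hbb-bt at 25.7, Alas2 at 22.2, Hba-a2 at 22.0 and Car1 at 7.26. Hbb-bt, Alas2 and Hba-a2 did not differ there beyond their SDs of 8.09, 4.48 and 5.53. In Cse-/- mice on the same diet the order was Hbb-bs at 52.3, Hba-a1 at 17.6, Alas2 at 7.97, Hbb-bt at 7.49, Hba-a2 at 7.02 and Car1 at 0.728 CPM per kilobase. All values below that are not per kilobase are CPM.

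On the no-Cys diet every member was lower in every Cse-/- mouse than in every Cse+/- mouse. The summed CPM of the 4 globins was 360, 183, 282 and 157 in the Cse+/- mice (av01 to av04) and 58.4, 57.9, 53.6 and 87.6 in the Cse-/- mice (av05 to av08). The means were 245 ± 93.5 and 64.4 ± 15.6 (SD, n = 4 each). The Cse+/- mice spread over a wider range than the Cse-/- mice, and av08 stood above the other 3 of its group.

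Among the alpha-globins, Hba-a1 was at 91.8, 48.6, 65.8 and 29.6 CPM in Cse+/- mice and at 11.7, 12.9, 10.6 and 21.9 CPM in Cse-/- mice. The groups did not overlap, and the log2 fold change from edgeR was -2.05 (SE 0.377), a level 4.13-fold lower. Hba-a2 was at 17.2, 9.45, 17.3 and 14.6 CPM against 4.25, 3.88, 3.97 and 6.64 CPM. Its log2 fold change was -1.65 (SE 0.350).

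Of the beta-globins, Hbb-bs was at 226, 112, 178 and 98.55 CPM in Cse+/- mice and at 38.5, 36.3, 33.4 and 52.5 CPM in Cse-/- mice. The highest Cse-/- mouse was again av08, and the log2 fold change was -1.94 (SE 0.336). Hbb-bt was at 25.2, 13.0, 20.1 and 14.1 CPM against 3.95, 4.83, 5.71 and 6.56 CPM. Its log2 fold change was -1.78 (SE 0.308), within 1 SE of the values of the other globins.

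Alas2, the haem enzyme, was at 45.1, 65.6, 59.4 and 43.7 CPM in Cse+/- mice and at 18.4, 16.3, 15.4 and 26.5 CPM in Cse-/- mice. Its fold change was the smallest of the 6, with a log2 value of -1.48 (SE 0.183). The mouse with the lowest globins among the Cse+/- animals, av04, also had the lowest Alas2, whereas av01, which had the highest globins, had the next lowest Alas2.

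Car1 had the largest fold change. It was at 6.66, 8.95, 8.63 and 12.02 CPM in Cse+/- mice, on 74, 127, 111 and 170 counts. In Cse-/- mice it was at 0.590, 0.733, 0.248 and 2.06 CPM, on only 10, 10, 4 and 28 counts. The log2 fold change was -3.37 (SE 0.387), a level 10.3-fold lower. Without av08, which held more Car1 than the other 3 Cse-/- mice together, it was -4.13, and without av07 it was -3.02.

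**Figure D1:**
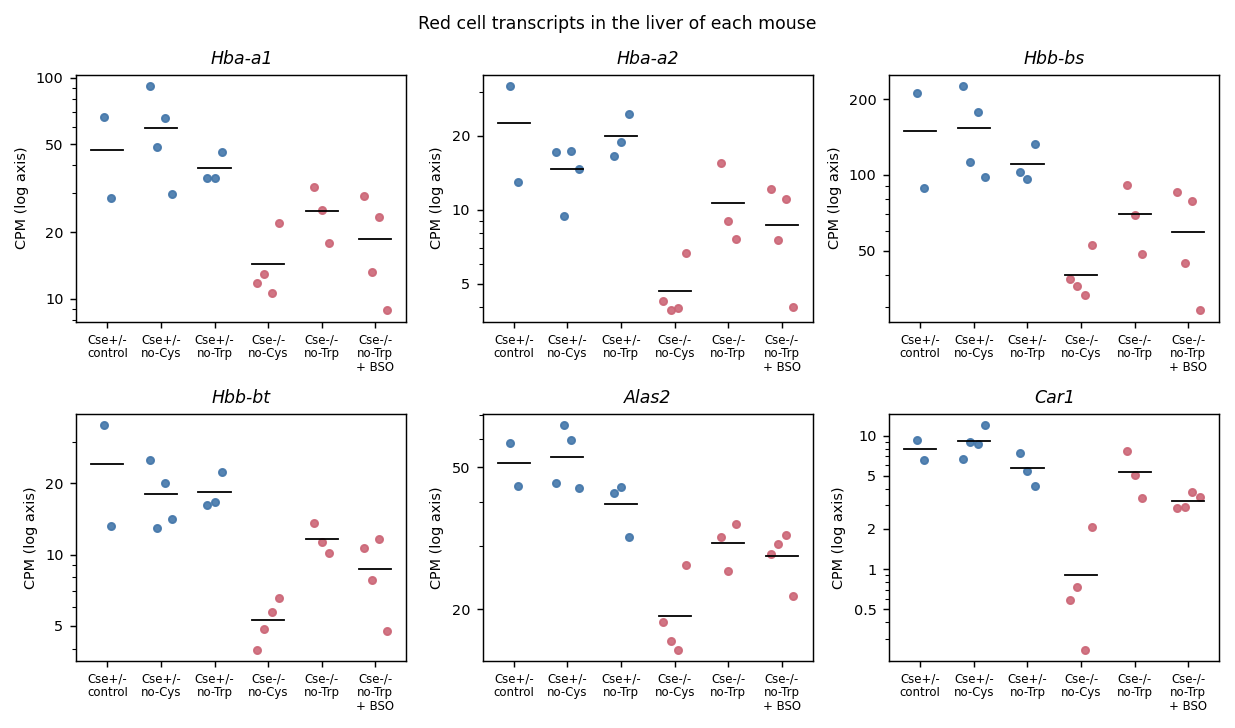
CPM of each member (log axis) in each of the 20 mice by group; blue points are Cse+/- mice, red points Cse-/- mice, and the bar is the group mean. For all 6 genes the 4 Cse-/- mice fed no-Cys sit below the 4 Cse+/- mice fed no-Cys, and for Car1 they sit between 0.248 and 2.06 CPM.

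In the fit across all genes, all 6 members passed an adjusted p of 0.05 as lower in this comparison, where 12.2% of the genes tested did. They were also all free of overlap between the groups, as 11.2% of all genes were in that direction. The members were chosen on this contrast, so nothing is read from either count. The median of the 6 log2 fold changes was -1.86, beside -0.0093 over all genes tested.

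The no-Trp diet, which removes another amino acid, gave smaller differences between the genotypes. The summed globins were 171, 167 and 226 CPM in Cse+/- mice (av17, av19, av20) and 152, 115 and 84.3 CPM in Cse-/- mice (av14 to av16), so the groups did not overlap but their nearest mice were 152 and 167 CPM. All 6 log2 fold changes were negative, from -0.90 for Hba-a2 to -0.07 for Car1, with a median of -0.65 beside 0.0024 over all genes. None of the 6 passed the adjusted p of 0.05 by edgeR, where 1.22% of all genes passed as lower and 1.37% as higher. The 4 globins did not overlap between the genotypes, as was true of 9.51% of all genes in that direction, whereas Alas2 and Car1 overlapped.

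Alas2 on the no-Trp diet was at 42.3, 44.03 and 31.9 CPM in Cse+/- mice and at 31.8, 25.5 and 34.5 CPM in Cse-/- mice. Car1 was at 7.46, 5.48 and 4.2 CPM against 7.72, 5.05 and 3.40 CPM, and its log2 fold change of -0.07 (SE 0.354) turned positive, to 0.18, without av16. The Car1 levels of the 2 genotypes thus spanned nearly the same range on this diet.

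The genotype effect on the no-Cys diet minus that on the no-Trp diet was negative for all 6 members, with a median of -1.20 on the log2 scale. It was -3.30 (SE 0.531) for Car1, -1.41 (SE 0.554) for Hba-a1, -1.27 (SE 0.497) for Hbb-bs, -1.12 for both Hbb-bt (SE 0.446) and Alas2 (SE 0.273), and -0.74 (SE 0.502) for Hba-a2. Alas2 and Car1 passed the adjusted p of 0.05 as lower, where 2.69% of all genes did and 1.67% were higher. This difference contains the contrast that chose the members, so it stands as a description. Alas2 lost that mark when any of av02, av06, av07, av14, av16 or av20 was left out, and the count of members passing then ranged from 1 to 2.

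**Figure D2:**
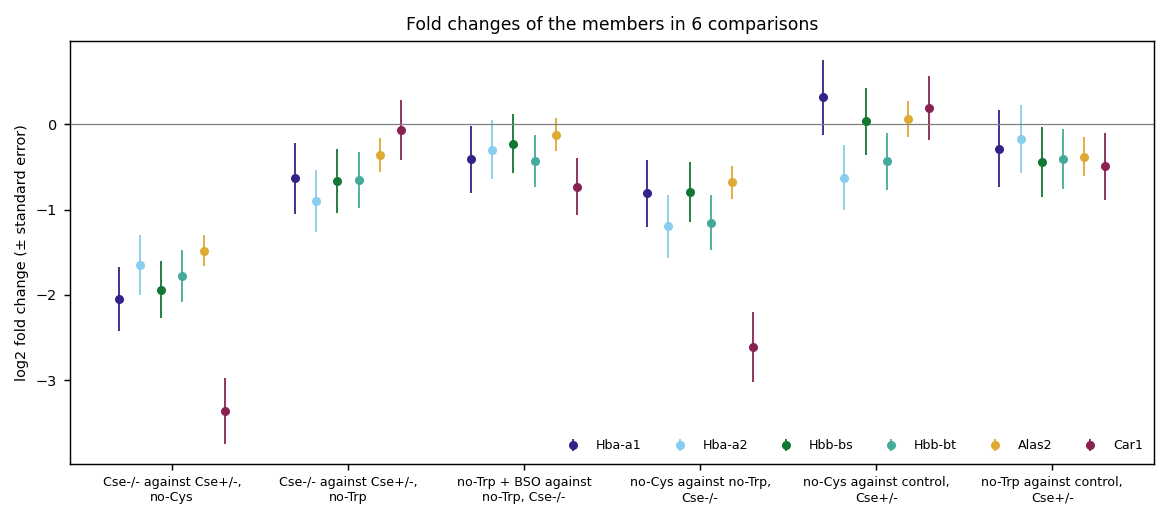
Log2 fold changes of the 6 members from edgeR with their standard errors (bars) in 6 comparisons, drawn in the order Hba-a1, Hba-a2, Hbb-bs, Hbb-bt, Alas2, Car1. All 6 lie between -3.37 and -1.48 for the genotypes on the no-Cys diet, and all lie within 1 log2 unit of 0 for the genotypes on the no-Trp diet, for BSO and for both diets against control in Cse+/- mice.

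Adding BSO to the no-Trp diet of Cse-/- mice left the members overlapping. The summed globins were 137, 73.3, 125 and 46.5 CPM with BSO (av09 to av12) and 152, 115 and 84.3 CPM without it. All 6 log2 fold changes were negative, with a median of -0.36 beside -0.0048 over all genes. The 2 with the largest size were Car1 at -0.73 (SE 0.338), more than 2 SE from 0, and Hbb-bt at -0.43 (SE 0.309). Those of Hba-a2, Hbb-bs and Alas2 were smaller than their errors. No member passed the adjusted p by edgeR, where 0.305% of all genes passed as lower and 0.488% as higher, and 6.12% of all genes had no overlap in the lower direction. The signs of Hba-a2 and Hbb-bs turned without av14, to 0.07 and 0.0070.

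Within Cse-/- mice the members were lower on the no-Cys than on the no-Trp diet, a comparison that shares its no-Cys mice with the one that chose the members. Car1 was again the farthest from 0, at -2.61 (SE 0.407), and its groups did not overlap (0.248 to 2.06 CPM against 3.40 to 7.72 CPM). Hba-a2 was at -1.20 (SE 0.367) and Hbb-bt at -1.15 (SE 0.324), also without overlap. Hba-a1 at -0.81 (SE 0.396), Hbb-bs at -0.80 (SE 0.350) and Alas2 at -0.68 (SE 0.194) overlapped. The 4 members Hba-a2, Hbb-bt, Alas2 and Car1 passed the adjusted p as lower, where 5.35% of all genes did and 5.07% were higher, and 3 did not overlap, as did 9.82% of all genes in that direction. Leaving out single mice left between 1 and 4 members passing: Car1 passed in each of the 7 refits, Hba-a2 and Hbb-bt lost their mark without av05, av06, av07 or av14, and Alas2 without av05, av06, av07, av14 or av16.

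In Cse+/- mice the 2 test diets were compared with the control diet, which had only 2 mice that differed widely. The summed globins were 344 CPM in av21 and 144 CPM in av22, a range that held 3 of the 4 no-Cys mice and all 3 no-Trp mice. The median log2 fold change of the members was 0.05 for no-Cys (4 positive, 2 negative) and -0.39 for no-Trp (6 negative), beside 0.0108 and -0.0091 over all genes. No member passed the adjusted p in either, where 1.19% and 0.0407% of all genes passed as lower and 0.989% and 0.00678% as higher. The sign of each member in the no-Cys comparison rested on the control mice: without av21 Hba-a2 was at 0.16 and Hbb-bt at 0.44, and without av22 Hba-a1 was at -0.17, Hbb-bs at -0.46, Alas2 at -0.13 and Car1 at -0.03. All members overlapped there, where 12.4% of all genes had no overlap in the lower direction. Without av21 the no-Trp median became 0.39, so the sign of that comparison rested on 1 mouse. Alas2 alone did not overlap in 1 of them, at 31.9 to 44.03 CPM on no-Trp and 44.2 and 58.3 CPM on control, where 14.6% of all genes had no overlap in that direction.

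Over the 6 groups, the mean of the summed globins fell in the order no-Cys Cse+/- (245 CPM), control Cse+/- (244 CPM), no-Trp Cse+/- (188 CPM), no-Trp Cse-/- (117 CPM), no-Trp with BSO Cse-/- (95.5 CPM) and no-Cys Cse-/- (64.4 CPM). The ranges of neighbouring groups in that order overlapped except between the no-Trp Cse+/- and no-Trp Cse-/- mice.

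The proportions among the members within a library do not depend on how it was scaled. Counts of both beta-globins per count of both alpha-globins stayed between 2.07 and 2.68 in all 20 mice, while the summed globins ranged from 46.5 to 360 CPM. Group means of that ratio ran from 2.20 ± 0.118 (SD, n = 3) in no-Trp Cse+/- mice to 2.53 ± 0.139 (SD, n = 4) in Cse-/- mice with BSO.

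The split between the paired copies was less even. Hba-a1 gave 5.34, 5.14, 3.80 and 2.02 counts per Hba-a2 count in the Cse+/- mice fed no-Cys. The Cse-/- mice fed no-Cys lay between 2.67 and 3.32, and the other 12 mice between 1.76 and 2.81. Thus av01, av02 and av03 held more Hba-a1 per Hba-a2 than any other mouse, and av04 of the same group did not. Hbb-bs gave 8.97, 8.64, 8.90 and 7.01 counts per Hbb-bt count in these 4 mice, against 5.85 to 9.75 in Cse-/- mice fed no-Cys. The shared sequence of each pair bears on both ratios and may bear on that of beta to alpha. Its part in them was not tested.

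Alas2 kept its proportion to the globins on the no-Cys diet, with 12.5, 35.8, 21.1 and 27.9 Alas2 counts per 100 globin counts in Cse+/- mice and 31.5, 28.1, 28.7 and 30.3 in Cse-/- mice. Car1 did not keep it to the same degree. It had 1.85, 4.89, 3.06 and 7.66 counts per 100 globin counts in Cse+/- mice and 1.01, 1.27, 0.462 and 2.36 in Cse-/- mice, overlapping through av01 and av08. In the other 4 groups this value lay between 1.86 and 7.43.

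**Figure D3:**
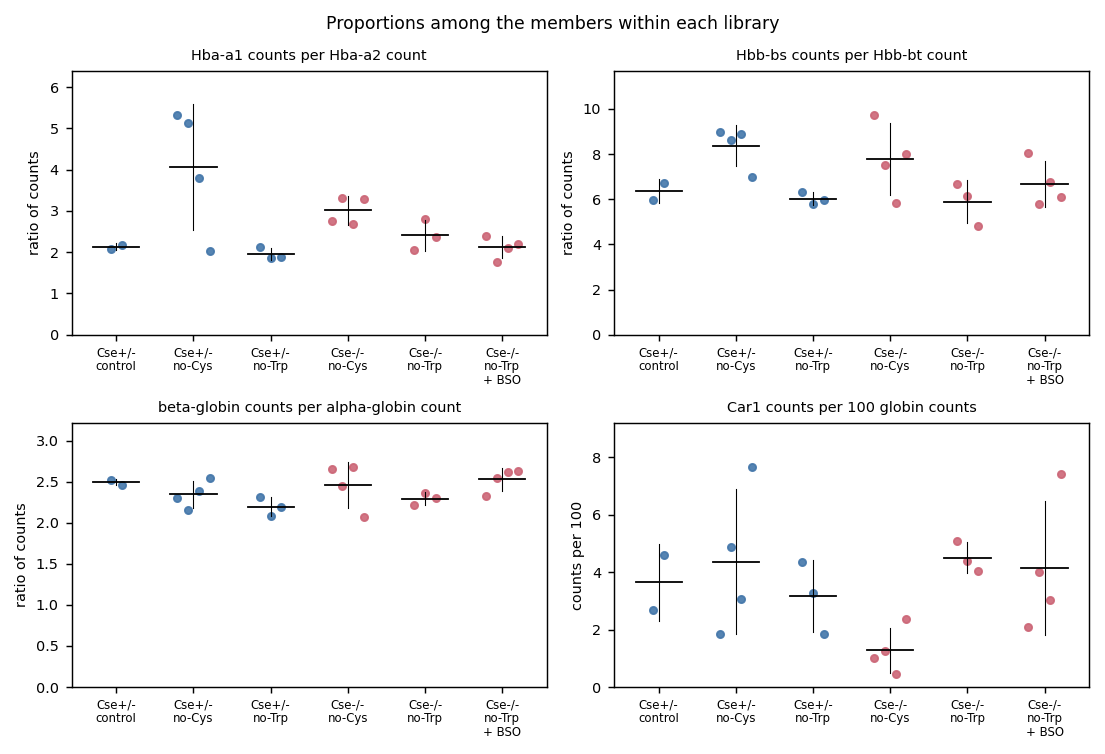
Ratios of member counts within each library by group; blue points are Cse+/- mice, red points Cse-/- mice, the horizontal bar is the mean and the vertical line 1 SD on either side. The beta to alpha ratio stays between 2.07 and 2.68, whereas Hba-a1 per Hba-a2 reaches 5.34 in the no-Cys Cse+/- mice and Car1 per 100 globin counts falls to 0.462 in the no-Cys Cse-/- mice.

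Over the 20 libraries the members rose and fell together, as the way they were picked requires. Pearson's r of log2 CPM was between 0.875 and 0.986 for the 6 pairs of globins and between 0.730 and 0.834 for the 8 pairs of a globin with Alas2 or Car1. When each library was taken as its deviation from its group mean, the globin pairs stayed at 0.834 to 0.971. The globins with Alas2 or Car1 dropped to between 0.108 and 0.418, and Alas2 with Car1 went from 0.877 to 0.503. The points share library depth and, for the globin pairs, reads of shared sequence, and no p is given.

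**Figure D4:**
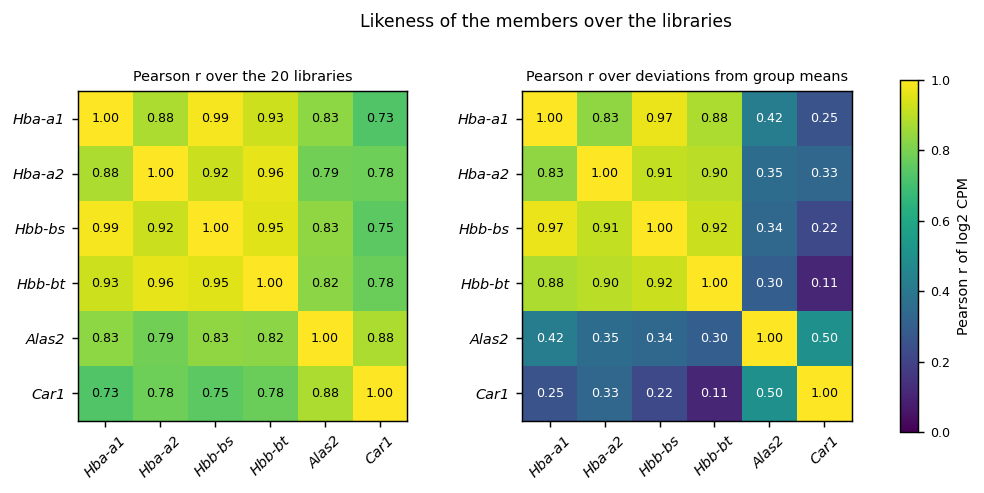
Pearson's r of log2 CPM between members over 20 libraries (left) and over the deviations of the same libraries from their group means (right); the colour scale runs from 0 to 1. The block of the 4 globins keeps values of 0.83 or more on the right, while Alas2 and Car1 keep 0.42 or less with the globins.

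Outside the members, 12573 genes with a mean of at least 1 CPM were ranked by r with the mean log2 CPM of the 6. The nearest over all libraries were Ccdc57 (r = 0.921), Col27a1 (0.920), Lamp1 (0.915), Vamp5 (0.915) and H2-K1 (0.909). Col27a1 encodes a fibrillar collagen, Lamp1 a lysosomal membrane protein and H2-K1 a class I histocompatibility chain. Over deviations from group means the nearest were instead Pbxip1 (0.841), Tmem216 (0.768), D630045J12Rik (0.755), Fkbp11 (0.753) and Tk1 (0.732). These values cover 20 libraries each and were picked as the highest of many.

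The other red cell genes were then read as a list of 24, of which 23 were in the table and 11 passed the filter. The transcripts that define the red cell membrane and late erythroid stages were at or near 0. Slc4a1, the band 3 anion exchanger and the main membrane protein of the red cell, had 64 counts in all 20 libraries and never exceeded 0.720 CPM. Hemgn and Rhag had 2 counts each, and Kel and Cldn13 none. The label of the members as red cell transcripts therefore rests on the globins, Alas2 and Car1 and on a few low transcripts, not on these membrane genes. Slc4a1 summed to 24 counts in Cse+/- and 4 counts in Cse-/- mice fed no-Cys, or 0.475 and 0.0706 CPM on average.

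On the no-Cys diet 4 of the 11 tested red cell genes were lower in the Cse-/- mice by edgeR and 2 were higher, where 12.2% of all genes were lower and 11.6% higher. Rhd, a blood group membrane protein, changed by -1.90 (SE 0.487, edgeR adjusted p = 0.00789). Sptb, the beta-spectrin of the red cell skeleton, changed by -1.77 (SE 0.313, edgeR adjusted p = 5.05e-04) and lay at 0.442 to 1.06 CPM against 1.98 to 3.95 CPM. Bpgm, the enzyme that makes 2,3-bisphosphoglycerate, changed by -0.46 (SE 0.099, edgeR adjusted p = 0.00261). Rhd and Sptb were low transcripts, and the calls of these 3 held in all 8 refits that left out a mouse.

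The red cell genes that rose were Ube2o, a ubiquitin ligase of reticulocyte remodelling, at 0.28 (SE 0.095, edgeR adjusted p = 0.0402), and Mkrn1 at 0.39 (SE 0.114, edgeR adjusted p = 0.0191). Ube2o lost its call without av01, av02, av04 or av05, and Mkrn1 without av08. Both are also used by liver cells, as are Fech, Slc25a37, Bnip3l and Xpo7, whose log2 fold changes lay between -0.07 and 0.11. The median of the 11 was -0.07, so the list as a whole did not follow the members, and the summed CPM of its 23 genes was 398 to 430 in Cse+/- and 402 to 430 in Cse-/- mice.

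On the other diets the list gave few calls. Sptb was also lower in the Cse-/- mice when the diet lacked Trp, at -1.46 (SE 0.332, edgeR adjusted p = 0.0252), a call lost without av15, av16, av19 or av20. Its level there was 0.869 to 1.06 CPM against 2.34 to 3.17 CPM, and its fold change did not pass the test between diets (interaction -0.31, SE 0.461, edgeR adjusted p = 0.766). Ube2o was higher on no-Cys than on no-Trp in Cse-/- mice, at 0.40 (SE 0.102, edgeR adjusted p = 0.0189), a call lost without av05 or av14. No gene of the list passed with BSO, in either diet against control or in the interaction, where 2, 2, 1 and 2 genes had an unadjusted p under 0.05 by edgeR.

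Regulators and receptors of early erythroid cells did not move with the members. Of 9 genes 6 were tested, and Tfrc, the transferrin receptor that takes up iron, was higher in the Cse-/- mice fed no-Cys at 0.98 (SE 0.244, edgeR adjusted p = 0.00643), with 41.4 to 60.4 CPM against 14.5 to 38.3 CPM. Kit, a receptor of progenitors and mast cells, was lower at -0.42 (SE 0.138, edgeR adjusted p = 0.034), a call lost without av02, av03, av05 or av07. The median of the 6 was -0.06. In Cse+/- mice on no-Cys against control, Zfpm1 passed at 0.66 (SE 0.172, edgeR adjusted p = 0.0499), and it lost the call in each of the 6 refits that left out a mouse (av01, av02, av03, av04, av21 or av22). Hba-x, Hbb-y and Hbb-bh1, the embryonic globins, and Hbb-bh2 and Hbb-bh0 had no count in any library, which allows up to 0.27 CPM (3 counts) in the smallest library. Of the 10 other globin genes only Cygb and Ngb, globins of other tissues, were tested, and their log2 fold changes of -0.36 and -0.94 did not pass (edgeR adjusted p = 0.195 and 0.139).

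Genes of haem synthesis other than Alas2 went in both directions on the no-Cys diet. All 8 were tested: 2 rose, Uros at 0.43 (edgeR adjusted p = 0.0164) among them, and 2 fell, Alad at -0.30 (0.047) and Urod at -0.24 (0.0416), and the median was -0.04. The calls of Alad and Urod were lost without av02, av03, av04, av05, av06 or av07 for Alad and without av03, av04, av05, av07 or av08 for Urod. Alas1, the enzyme of the same step as Alas2 in liver and other non-erythroid cells, was at 896 to 1365 CPM in Cse+/- and 796 to 1128 CPM in Cse-/- mice, a log2 change of -0.09 (SE 0.167). On the no-Trp diet, in contrast, Alas1 was at 1077 to 1399 CPM in Cse+/- and 343 to 552 CPM in Cse-/- mice, a change of -1.57 (SE 0.198, edgeR adjusted p = 2.04e-04). The difference between the diets in its genotype effect was 1.48 (SE 0.257, edgeR adjusted p = 0.00336), opposite in sign to that of Alas2.

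Alas1 was also higher in Cse-/- mice with BSO than without it, at 0.94 (SE 0.185, edgeR adjusted p = 0.0181), a call lost without av09, av11, av14 or av16. It was higher on no-Cys than on no-Trp in Cse-/- mice by 1.21 (SE 0.187, edgeR adjusted p = 6.11e-04). Uros at 0.43 was higher in that comparison too (edgeR adjusted p = 0.0477), a call lost without av05, av06, av07, av08, av14 or av16.

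Of 8 genes that handle haem and haemoglobin, 4 were higher and none lower in the Cse-/- mice on no-Cys, with a median of 0.50, where 11.6% of all genes were higher. Slc48a1, which carries haem out of lysosomes, rose most, from 50.8 to 61.6 CPM in Cse+/- mice to 115 to 159 CPM in Cse-/- mice, a log2 change of 1.41 (SE 0.116, edgeR adjusted p = 1.9e-07). Blvrb, a biliverdin reductase, rose by 0.79 (edgeR adjusted p = 0.00507), Hmox1, the haem oxygenase that opens the haem ring, by 0.65 (0.0109), and Cd163, the macrophage receptor for haemoglobin bound to haptoglobin, by 0.62 (0.0122, lost without av05). Hp, which encodes haptoglobin, had the lowest value at -0.46 (edgeR adjusted p = 0.288).

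With BSO, Slc48a1 and Blvrb rose too, by 0.86 (SE 0.125, edgeR adjusted p = 0.00216) and 0.93 (SE 0.209, edgeR adjusted p = 0.0383), while no member passed. The Blvrb call held only without av10. On no-Cys against no-Trp in Cse-/- mice, they were higher by 1.23 (edgeR adjusted p = 1.47e-05) and 1.08 (edgeR adjusted p = 0.00376). The genotype effect on the no-Cys diet exceeded that on the no-Trp diet for Slc48a1 by 1.14, Blvrb by 1.18, Hmox1 by 1.10 and Cd163 by 1.01 (edgeR adjusted p = 0.00164, 0.0254, 0.0199 and 0.0288). Those of Blvrb (av02, av06, av07, av15, av16 or av20), Hmox1 (av17) and Cd163 (av02, av05, av14, av16 or av17) did not pass without the mice named.

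Among the 10 other carbonic anhydrases 6 were tested. Car2, the other cytosolic red cell form, which also serves other tissues, was higher in Cse-/- mice on both diets, at 0.69 on no-Cys (SE 0.156, edgeR adjusted p = 0.0034) and 0.70 on no-Trp (SE 0.173, edgeR adjusted p = 0.0366, lost without av14, av15, av17 or av19). Its sign was thus opposite to that of Car1. Car14 at -1.44, Car5b at -1.19 and Car8 at -0.63 were lower on the no-Cys diet (edgeR adjusted p = 2.52e-04, 0.0062 and 2.48e-04). Car3, an abundant form in liver, muscle and fat, was at 539 to 1691 CPM against 506 to 1155 CPM there, a change of -0.81 that did not pass (edgeR adjusted p = 0.0516), although it passed without av01 or av08. On the no-Trp diet Car3 was higher in Cse-/- mice by 1.38 (SE 0.342, edgeR adjusted p = 0.0366), although it passed in none of the 6 refits that left out a mouse.

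Carbonic anhydrases also differed between diets. On no-Cys against no-Trp in Cse-/- mice, Car3 at -1.26 and Car8 at -0.55 were lower (edgeR adjusted p = 0.016, lost without av05, av06 or av14, and 0.00424). The difference in genotype effect between the diets was -2.19 for Car3, -1.47 for Car14 and -0.87 for Car8 (edgeR adjusted p = 0.00958, 0.0218 and 0.00401), and for Car14 it was lost without av07, av15 or av17.

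Markers of other blood cells were low, and their summed levels are given beside the members on the no-Cys diet. The 10 platelet genes summed to 7.05 to 10.2 CPM in Cse+/- and 4.90 to 5.95 CPM in Cse-/- mice, so these ranges did not overlap. Of the 5 tested, only Itga2b, an integrin chain of platelets, passed, at -0.68 (SE 0.171, edgeR adjusted p = 0.00709), and Pf4, the platelet chemokine, was lowest at -0.97 (edgeR adjusted p = 0.138, passing without av08). The 11 neutrophil genes summed to 0.564 to 2.25 against 0.590 to 0.952 CPM, and neither of the 2 tested, S100a8 at -1.34 and S100a9 at -1.10, passed (edgeR adjusted p = 0.235 and 0.293). The 10 lymphocyte genes summed to 2.34 to 5.50 against 1.77 to 3.004 CPM. Cd79b, part of the B cell receptor, passed at -1.39 (edgeR adjusted p = 0.0184, lost without av02, av04 or av05). The part of blood content in the levels of the members was not tested.

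Cells resident in liver had higher marker levels. The 6 Kupffer cell genes, from the macrophages that clear old red cells, summed to 198 to 257 against 162 to 214 CPM, with all 6 log2 fold changes negative, a median of -0.34 and none passing by edgeR (1 with an unadjusted p under 0.05, and Marco passing without av08). The 7 genes of sinusoidal endothelium summed to 237 to 275 against 223 to 240 CPM, and Lyve1 rose by 1.15 while Fcgr2b fell by 0.40 (edgeR adjusted p = 2.2e-04 and 0.00686). The 7 hepatocyte genes summed to 88506 to 113196 against 44281 to 71826 CPM. Alb at -1.26, Ttr at -1.04, Apoa1 at -0.77 and Serpina1a at -0.61 fell and Cps1 at 0.58 rose (edgeR adjusted p = 4.8e-05, 8.81e-05, 0.00196, 0.00109 and 0.0457), Cps1 losing its call without av02, av03, av04, av05, av06 or av08. Of 3 proliferation genes Cdk1 passed, at -2.66 (SE 0.463, edgeR adjusted p = 4.47e-04), on 68 and 12 counts.

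On the other comparisons these 6 cell type and proliferation lists gave calls only in hepatocytes and endothelium. No platelet, neutrophil, lymphocyte, Kupffer cell or proliferation gene passed by edgeR outside the genotypes on the no-Cys diet, and Cd5l, Marco, Pf4 and Itga2b passed elsewhere only under an alternative. On no-Cys against no-Trp in Cse-/- mice Ttr at -0.64, Apoa1 at -0.62 and Serpina1a at -0.43 were lower (edgeR adjusted p = 0.0174, 0.0268 and 0.0398), calls lost without av05, av07 or av14 for Ttr, without av06, av07 or av14 for Apoa1 and without av05, av06, av07, av14 or av16 for Serpina1a. In the difference between diets Alb at -0.997, Ttr at -0.81 and Lyve1 at 1.30 passed (edgeR adjusted p = 0.0346, 0.0492 and 0.011). Lyve1 passed in all 14 refits that left out a mouse, Alb in 6 (lost without av03, av05, av06, av07, av15, av16, av17 or av20) and Ttr in 3 (without av01, av08 or av15).

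**Figure D5:**
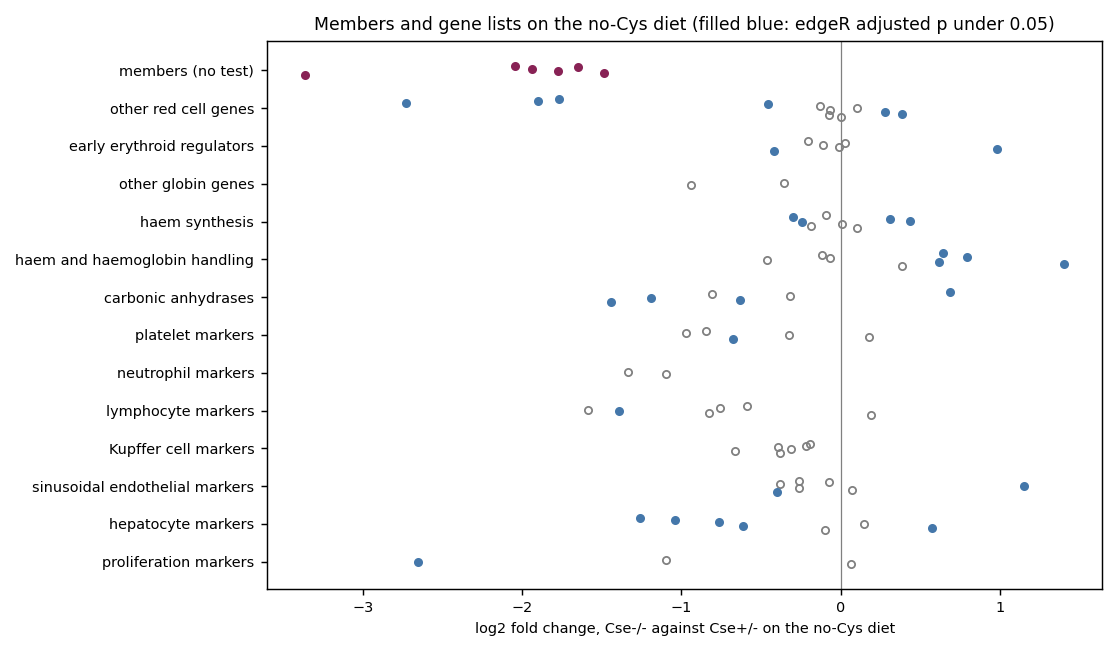
Log2 fold change of each tested gene between the genotypes (Cse-/- against Cse+/-) fed no-Cys, 1 row of points for each list (4 mice a group); filled blue points passed an edgeR adjusted p of 0.05, open points did not, and the members are drawn without a test. The members lie from -3.37 to -1.48, and among the 11 other red cell genes Rhd and Sptb lie in that range.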

How the data were processed

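Liver poly(A) RNA of 20 mice in 6 groups was analysed. Per the submitters' processing notes, the authors aligned reads with HISAT2 2.1.0 to GRCm38 and counted them per gene with HTSeq 0.11.0, and the deposited values are raw read counts. The annotation release and the strand setting are not given in the sources used here. Of 21 count columns 20 were tied to groups through mouse numbers in the study's list of animals, and 1 was not used. Symbols were matched for 45143 of 46078 gene IDs.

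Genes were filtered with filterByExpr (minimum count 10, minimum total 15), scaled by TMM and tested with the quasi-likelihood test of edgeR 4.0.16 in R 4.3.3 over all 6 groups, with Benjamini-Hochberg adjustment over 14759 genes and a threshold of 0.05. The script was tested on simulated data. CPM use the TMM-adjusted library size, and correlations use log2 CPM with a prior count of 2. Tables and figures used Python 3.11.15, numpy 2.4.6, pandas 2.3.3 and matplotlib 3.10.9. The p-values measure the spread between these mice, and floors cover counting error only.

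The 6 members and the 13 lists were chosen with earlier results of these data known. By rule, members were given in every library, lists by counts with their called, highest or lowest genes, and outside genes by the 5 highest r. Alternatives were DESeq2 1.42.0, other scalings and filters, only the groups compared, and leaving out each mouse. Positions are from GENCODE M21 and promoters from RefSeq. Some genes of the lists are not reported here by name, but count in the totals.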

Additional observations from a re-analysis of the deposited data

Results flagged for a closer look

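Among the groups of 4 mice, 7 of 132 sets of values held a mouse set apart from the other 3 by the Dixon test, and chance flags about 1 in 20 sets. In Cse-/- mice fed no-Cys, av08 had Hba-a2 at 6.635 CPM (the others 3.883 to 4.246 CPM) and summed globins at 87.59 CPM (53.64 to 58.44 CPM), and av05 had Ube2o at 17.93 CPM (14.73 to 15.19 CPM). In Cse+/- mice fed no-Cys, av04 had 7.005 Hbb-bs counts per Hbb-bt count (8.641 to 8.968) and Slc48a1 at 61.58 CPM (50.76 to 52.06 CPM), and av01 had Cpox at 159.9 CPM (180.3 to 180.9 CPM). With BSO, av10 had Hmox1 at 24.9 CPM (19.27 to 19.99 CPM).

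The genotype effect on the no-Cys diet minus that on the no-Trp diet passed the interaction test of edgeR for 8 genes of the haem, red cell and carbonic anhydrase lists. On the log2 scale it was 1.476 for Alas1 (edgeR adjusted p = 0.00336), 1.095 for Hmox1 (0.0199), 1.176 for Blvrb (0.0254), 1.012 for Cd163 (0.0288) and 1.136 for Slc48a1 (0.00164). It was -2.188 for Car3 (edgeR adjusted p = 0.00958), -0.872 for Car8 (0.00401) and -1.471 for Car14 (0.0218).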

How the results depend on the processing

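The median log2 fold change of the members moved by less than the spread between mice under 101 of 102 alternatives. The exception was no-Trp against control in Cse+/- mice, where leaving out single mice gave -0.734 (without av22) to 0.386 (without av21), since the 2 control mice differ. The count of members passing stayed at 6 for the genotypes on no-Cys and at 0 for the genotypes on no-Trp, BSO and both diets against control under the alternatives run, DESeq2 included. For no-Cys against no-Trp in Cse-/- mice it was 3 to 5 without leaving out mice, and for the difference between diets 2 to 4. The count of other red cell genes kept within 1.5 times under 91 of 102 alternatives. For no-Cys against no-Trp in Cse-/- mice it went from 1 to 0 with no filter on low counts and with only the groups compared, and to 0 to 2 when single mice were left out. For the genotypes on no-Trp it went from 1 to 0 to 2 when single mice were left out, and for BSO from 0 to 1 with DESeq2. The causes were not tested. No paired analysis was possible because the columns of the count table carry mouse numbers and not the replicate numbers of the labels. Low counts limit Car1 in Cse-/- mice and the membrane genes.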
